A study of Mus musculus with 12 samples.

Results

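Semaphorins are secreted or membrane-bound guidance proteins, plexins are their receptors, and neuropilins are co-receptors that hold secreted semaphorins and VEGF ligands for the signalling receptor. Here 10 genes of this system were examined in brain myeloid cells of a tau transgenic mouse: the class 4 semaphorins Sema4a, Sema4b and Sema4d, the plexins Plxna1, Plxna4, Plxnb2, Plxnc1 and Plxnd1, and the neuropilins Nrp1 and Nrp2. They were selected on measured values, namely the genotype comparison of these same 12 libraries, so their genotype differences are given as a description and support nothing by themselves. All 10 were found among the 36528 gene numbers of the count tables and all 10 were among the 10022 genes kept by the count filter. The mouse genome holds further genes of this system, and 21 other semaphorins and plexins are described after these 10.

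The libraries were made from total RNA of Cd11b-positive myeloid cells sorted from the brains of male mice aged 6 months. Cd11b, the product of Itgam, is an integrin subunit carried by microglia and by other myeloid cells. Of the 12 libraries, 6 came from animals with the hMAPT-P301S genotype, a human tau transgene with a substitution found in inherited frontotemporal dementia, and 6 from non-transgenic littermates. They are called P301S and NonTg below, and numbered 1 to 6 within each genotype in the order of deposit. The labels name neither the promoter that drives the transgene nor how many animals stand behind a library, so the spread between libraries of a genotype may be partly technical. The transgene's own transcript was not analysed here. All 10 microglial marker genes checked were detected and passed the count filter.

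The cytoplasmic part of a plexin acts on small GTPases of the Ras family, and through exchange factors and kinases it changes the actin cytoskeleton and integrin adhesion. In the immune system class 4 semaphorins also act through receptors outside the plexins, such as CD72. Plexin A1 is known to associate with the TREM2 and DAP12 (Tyrobp) complex of myeloid cells, and neuropilins bind VEGF besides class 3 semaphorins.

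The bases before annotated start sites of the members with the largest lower and higher called differences are shown first, to give the promoter sequence of the genes the results turn on. The reference windows from RefSeq (assembly GRCm38.p6) reach from 250 bases before to 50 bases after a gene start. They held 15 starts of 8 of the 10 genes, with Plxna1 and Plxna4 not in the table. Sema4b, on the plus strand of chromosome 7, had 2 starts. Bases that fall in an exon of the gene in GENCODE M21 were left out, so the stretches differ in length. The first Sema4b stretch ends just before the first annotated exon, and the second lies in the first intron of the longer transcripts, before an internal start. The Nrp1 stretch precedes a RefSeq transcript start that lies within the annotated gene. It falls in an intron of a retained-intron transcript that begins further upstream. Capitals mark a match to the letters AGGAAGT, the PU.1 motif, read on the opposite strand.
Sema4b, first start, chr7:80186620-80186840 (GRCm38.p6, plus strand): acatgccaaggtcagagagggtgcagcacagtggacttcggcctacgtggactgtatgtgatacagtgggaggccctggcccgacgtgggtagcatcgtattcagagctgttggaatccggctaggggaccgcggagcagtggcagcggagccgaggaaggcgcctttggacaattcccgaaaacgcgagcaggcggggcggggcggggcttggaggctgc
Sema4b, second start, chr7:80198338-80198440 (GRCm38.p6, plus strand): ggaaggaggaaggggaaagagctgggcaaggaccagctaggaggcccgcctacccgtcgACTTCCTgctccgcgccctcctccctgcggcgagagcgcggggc
Nrp1, chr8:128358823-128359072 (GRCm38.p6, plus strand): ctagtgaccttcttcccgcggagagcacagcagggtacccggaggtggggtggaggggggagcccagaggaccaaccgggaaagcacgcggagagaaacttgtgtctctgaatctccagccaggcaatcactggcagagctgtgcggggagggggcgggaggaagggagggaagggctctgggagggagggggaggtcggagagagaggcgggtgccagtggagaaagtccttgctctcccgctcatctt
PU.1 is a transcription factor of the myeloid lineage. Its letters were found in 9.35% of all 32851 windows, on either strand. The same window of the second Sema4b start held CACGTG, the E-box bound by MiT/TFE factors, which 7.15% of windows hold. No window of Nrp1, Nrp2 or Sema4a held any of the motifs searched, the others being TGANTCA for AP-1 (7.81% of windows), GCGNGGGCG for Egr factors (5.55%) and GAAANNGAA, an interferon response element core (8.56%). Of the remaining members, Sema4d had 1 window with the AP-1 letters and another with the PU.1 letters, Plxnc1 held the Egr and interferon letters, Plxnd1 the interferon letters and Plxnb2 the Egr letters. These matches describe the letters only.

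Among the class 4 semaphorins, Sema4b was far lower in P301S libraries, while Sema4d and Sema4a did not pass the test. Sema4b (Entrez 20352, chr7:80186841-80226527, plus strand) encodes a transmembrane semaphorin. Gene positions are those of GENCODE M21 on GRCm38. In CPM, read counts scaled to library size after trimmed-mean normalisation, it ranged from 8.93 to 38.2 in NonTg with a median of 25.1. In P301S it ranged from 0.544 to 3.06 with a median of 1.47. Every P301S library was below every NonTg library. The log2 fold change, P301S minus NonTg, was -3.96 ± 0.67 (SE, 6 libraries per genotype; 95% interval -5.33 to -2.60), and the gene was called lower in the fit across all genes. In bulk libraries fewer cells of a type and less RNA per cell cannot be told apart. These values rest on few reads: 2 to 6 counts per P301S library, 26 in all, against 11 to 105 per NonTg library, 356 in all. The coefficient of variation among P301S libraries was 51.4%, where Poisson counting alone gives 48.04%. Among NonTg libraries it was 43.66% against 12.98%, so the NonTg libraries varied by more than counting error. On a log2 scale with 1 added to the adjusted RPKM the difference was -1.08, and with 0.1 added it was -2.88; the gene was called on both scales.

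Sema4d (Entrez 20354, chr13:51685529-51793747, minus strand) encodes CD100, a semaphorin shed from the membrane that binds plexin B receptors and CD72. It was the most abundant of the 3 class 4 members. Its CPM ranged from 58.5 to 172.9 in NonTg, with a median of 101.6, and from 95.7 to 148.5 in P301S, with a median of 115.8. The P301S range lay inside the NonTg range, and the log2 fold change was 0.11 ± 0.27 (95% interval -0.45 to 0.67).

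Sema4a (Entrez 20351, chr3:88435959-88461182, minus strand), a semaphorin of antigen-presenting cells, was at the edge of detection in both genotypes. It had 1.22 to 7.06 CPM in NonTg, median 4.72, and 1.29 to 16.3 CPM in P301S, median 4.35. A single P301S library, number 2, lay above all NonTg libraries. On the log2 scale the difference was 0.30 ± 0.74 (95% interval -1.21 to 1.81), and without that library it was -0.36.

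**Figure D1:**
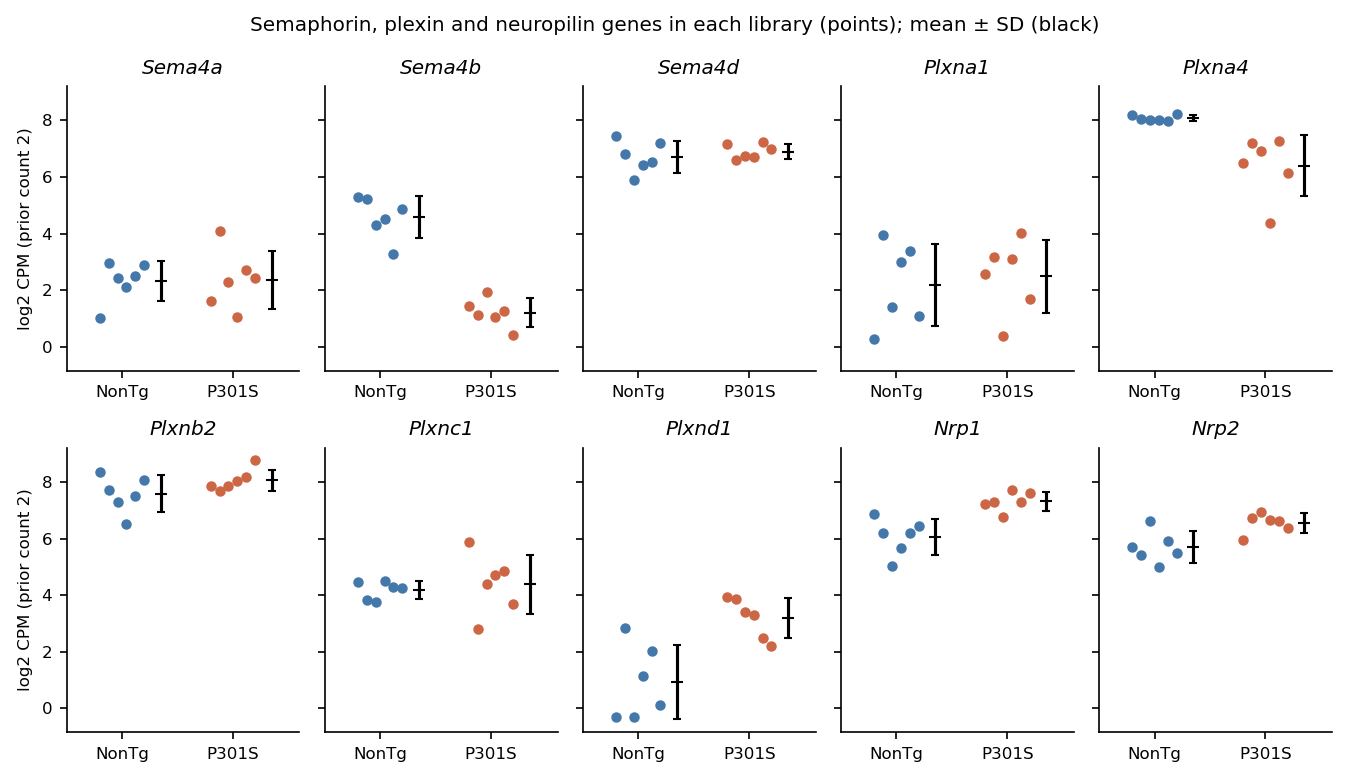
Log2 CPM (prior count 2) of the 10 genes in each library, NonTg in blue and P301S in orange, with the mean and SD of 6 libraries beside the points. Sema4b and Plxna4 show no overlap between genotypes, and the NonTg libraries of Plxna4 sit close together between 253.2 and 296.6 CPM.

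Among the plexins, Plxna4 was lower in P301S libraries and the other 4 members were not called. Plxna4 (Entrez 243743, chr6:32144268-32588192, minus strand) encodes plexin A4, a receptor for class 3 semaphorins through neuropilins and for class 6 semaphorins directly. In NonTg it ranged from 253.2 to 296.6 CPM with a median of 262.4. In P301S it ranged from 20.0 to 153.2 CPM with a median of 105.4. All P301S libraries lay below all NonTg libraries, and P301S library 4 was the lowest. The log2 fold change was -1.43 ± 0.31 (95% interval -2.06 to -0.80). Without P301S library 4 it was -1.20 and the gene was still called lower. Counts were not sparse, with 31 to 545 per P301S library and 283 to 1105 per NonTg library. The spread was unequal between genotypes. The coefficient of variation was 6.76% in NonTg, near the 4.17% that counting alone gives, and 50.9% in P301S, where counting gives 5.72%. An opposite-strand transcript, Plxna4os3, covers 0.78% of the exon bases, and its reads could not be told apart from those of Plxna4 without strand information.

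Plxnb2 (Entrez 140570, chr15:89155549-89180788, minus strand) encodes plexin B2, a receptor for class 4 semaphorins. It ranged from 89.8 to 327.5 CPM in NonTg, with a median of 197.2, and from 206.1 to 432.6 CPM in P301S, with a median of 245.0. Only 1 P301S library exceeded the highest NonTg library, and the log2 fold change was 0.41 ± 0.26 (95% interval -0.13 to 0.94).

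Plxnc1 (Entrez 54712, chr10:94790866-94944835, minus strand) encodes plexin C1, the receptor of Sema7a. It had 12.8 to 22.1 CPM in NonTg, median 18.5, and 6.24 to 57.5 CPM in P301S, median 22.8. The P301S range extended past the NonTg range at both ends. The fitted log2 fold change was 0.49 ± 0.52 (95% interval -0.58 to 1.57), and without P301S library 1, the highest, it was 0.06.

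Plxnd1 (Entrez 67784, chr6:115954811-115995005, minus strand) encodes plexin D1, the receptor of Sema3e. It had no count in NonTg libraries 1 and 3, where 3 counts, the limit a count of 0 allows, correspond to 1.22 and 2.74 CPM. The highest NonTg library had 6.28 CPM and the median was 0.847. The P301S libraries had 3.81 to 14.5 CPM with a median of 9.36. Of the 6 P301S libraries, 4 exceeded every NonTg library. With 23 counts in all NonTg libraries and 158 in all P301S libraries, the log2 fold change was 2.26 ± 0.88 (95% interval 0.45 to 4.07), the largest positive value of the 10 genes, and the gene was not called. With single libraries left out it ranged from 1.99, without NonTg library 1, to 3.35, without NonTg library 2. Such a fitted value depends on the prior count where libraries are at 0.

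Plxna1 (Entrez 18844, chr6:89316314-89362620, minus strand), the plexin that associates with the TREM2 complex, was sparse and scattered. It had 0.406 to 14.5 CPM in NonTg, median 4.48, and 0.51 to 15.5 CPM in P301S, median 6.45. The genotypes overlapped almost fully, and the log2 fold change was 0.18 ± 0.83 (95% interval -1.51 to 1.88). The opposite-strand transcript Gm26811 overlaps 10.7% of its exon bases, where reads of these transcripts could not be told apart.

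Both neuropilins had positive differences, and 1 of them was called. Nrp1 (Entrez 18186, chr8:128358604-128503363, plus strand) encodes neuropilin 1, which binds Sema3a and VEGF-A. In NonTg it ranged from 32.0 to 115.3 CPM with a median of 72.6. In P301S it ranged from 109.1 to 210.4 CPM with a median of 155.8. Of the P301S libraries, 5 were above all NonTg libraries, and 1 NonTg library was above the lowest P301S library. The log2 fold change was 1.18 ± 0.29 (95% interval 0.59 to 1.77), and Nrp1 was called higher. It stayed called without any single library, with values from 1.05 to 1.37. The call was close to the threshold of 0.05 without P301S library 6 (edgeR, adjusted p = 0.0482).

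Nrp2 (Entrez 18187, chr1:62703285-62818695, plus strand) encodes neuropilin 2, which binds Sema3f and VEGF-C. Its CPM ranged from 31.4 to 98.7 in NonTg, with a median of 48.1, and from 61.7 to 122.3 in P301S, with a median of 99.5. In P301S, 3 libraries exceeded every NonTg library, and a single NonTg library, number 3, exceeded the lowest P301S library. The log2 fold change was 0.81 ± 0.31 (95% interval 0.16 to 1.45), and the gene was not called.

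Over the 10 genes, 1 was called higher, 2 were called lower and 7 were not called, by edgeR's quasi-likelihood test with Benjamini-Hochberg adjustment over all genes tested and a threshold of 0.05. Of all 10022 genes tested, 388 (3.87%) were called, 238 of them higher (2.37%) and 150 lower (1.5%). Since the members were selected on this comparison, nothing is read from the difference between these shares. Of the 10 differences 8 were positive, with a median log2 fold change of 0.35, beside a median of -0.02 and 48.8% positive values over all genes tested. The CPM ranges of the genotypes did not overlap for 2 of the 10 genes and for 329 (3.28%) of all genes tested. No threshold of the selection is given, so members just inside and just outside it could not be set apart.

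**Figure D2:**
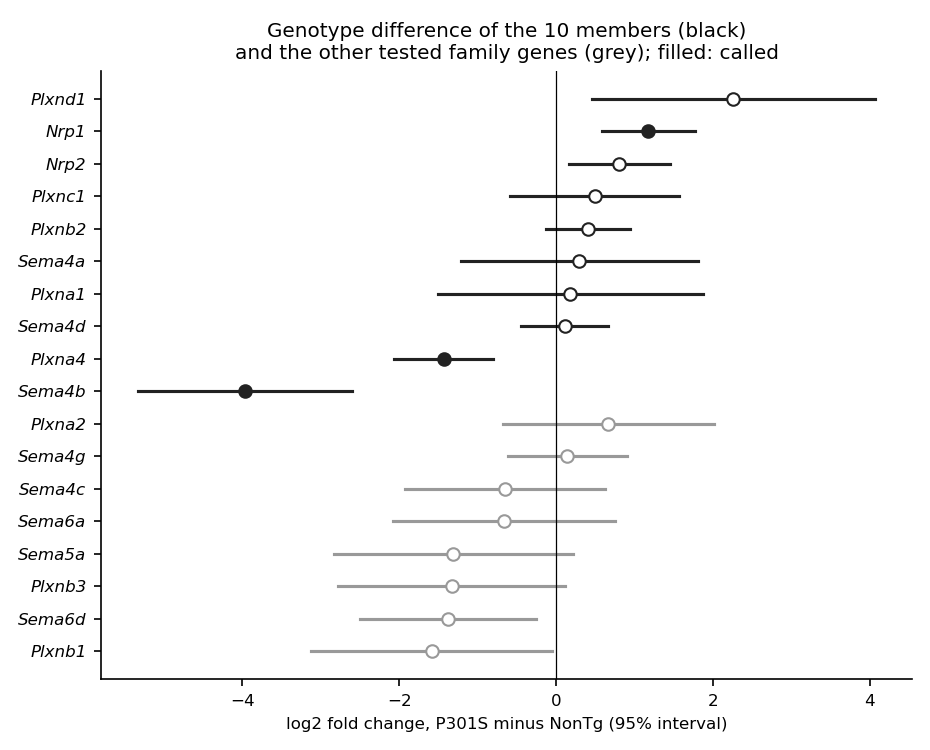
Log2 fold change (P301S minus NonTg) with its 95% interval for the 10 genes in black and for the 8 other tested genes of the system in grey, filled where called. Only Nrp1, Plxna4 and Sema4b are filled. The interval of Plxnd1, from 0.45 to 4.07, is the widest of the 10.

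Of the 21 other semaphorins and plexins, 8 passed the count filter and none of these was called. The count of 0 held with edgeR and with DESeq2, and 2 genes were at an unadjusted p under 0.05. Of the 8 differences 6 were negative, and their median log2 fold change was -0.98. Sema6d, a ligand of plexin A1, had a mean of 35.6 ± 21.8 CPM (SD) in NonTg and 13.7 ± 10.3 in P301S. The difference on the log2 scale was -1.38 ± 0.55 (adjusted p = 0.181). Plxnb1, the high-affinity plexin for Sema4d, had 13.2 ± 9.55 CPM in NonTg and 4.46 ± 3.65 in P301S. Its log2 fold change was -1.58 ± 0.75 (adjusted p = 0.296). Plxnb3, a receptor of Sema5a, and Sema5a itself had log2 fold changes of -1.33 ± 0.70 (adjusted p = 0.372) and -1.31 ± 0.74 (adjusted p = 0.413). Sema6a had -0.66 ± 0.69 (adjusted p = 0.738) and Sema4c -0.65 ± 0.62 (adjusted p = 0.698). The positive values were those of Plxna2, at 0.67 ± 0.66 (adjusted p = 0.713), and Sema4g, at 0.15 ± 0.37 (adjusted p = 0.911). Sema4g was the most abundant of these genes, with 97.1 ± 36.3 CPM in NonTg and 107.5 ± 70.7 in P301S.

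The 13 other genes were too sparse to test. They are all 7 class 3 semaphorins, the secreted class that mostly acts through neuropilins, with Sema4f, Sema5b, Sema6b, Sema6c, Sema7a and Plxna3. The largest count of any of them in any library was 36, of Plxna3. Sema3g had no count in all 12 libraries. Thus the co-receptors Nrp1 and Nrp2 were measured in these cells, and their class 3 ligands were below the filter.

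Levels of different genes were compared per length, as the deposited size-factor-adjusted RPKM (reads per kilobase of gene model and depth). Plxnb2 had the highest mean in both genotypes, at 6.83 ± 2.78 adjusted RPKM (SD, n = 6) in NonTg and 9.10 ± 2.74 in P301S. Plxna4 ranked 2 of the 10 in NonTg, at 4.82 ± 0.29, and 5 in P301S, at 1.78 ± 0.91. Sema4d ranked 3 in both, at 3.40 ± 1.29 and 3.69 ± 0.66. Nrp1 ranked 4 in NonTg, at 2.46 ± 0.99, and 2 in P301S, at 5.62 ± 1.30. Nrp2 ranked 5 in NonTg, at 1.51 ± 0.67, and 4 in P301S, at 2.64 ± 0.58. Sema4b ranked 6 in NonTg, at 1.36 ± 0.59, and last in P301S, at 0.0867 ± 0.0441.

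The remaining 4 members had means under 1 adjusted RPKM. They were Plxnc1 at 0.48 ± 0.11 in NonTg and 0.677 ± 0.479 in P301S, Sema4a at 0.192 ± 0.0871 and 0.234 ± 0.222, Plxna1 at 0.145 ± 0.139 and 0.165 ± 0.133, and Plxnd1 at 0.0607 ± 0.0807 and 0.301 ± 0.142. Neighbours in this order overlapped over libraries, apart from Plxnc1 above Sema4a in NonTg. Nrp2 was above Sema4b, its neighbour in NonTg, in 2 of the 6 libraries, so these neighbours have no settled order there. The same holds, at 3 of 6 libraries each, for Sema4a over Plxna1 in both genotypes and for Plxnd1 over Sema4a in P301S. Plxnb2 was above Nrp1 in all 6 P301S libraries, although their ranges overlapped.

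**Figure D3:**
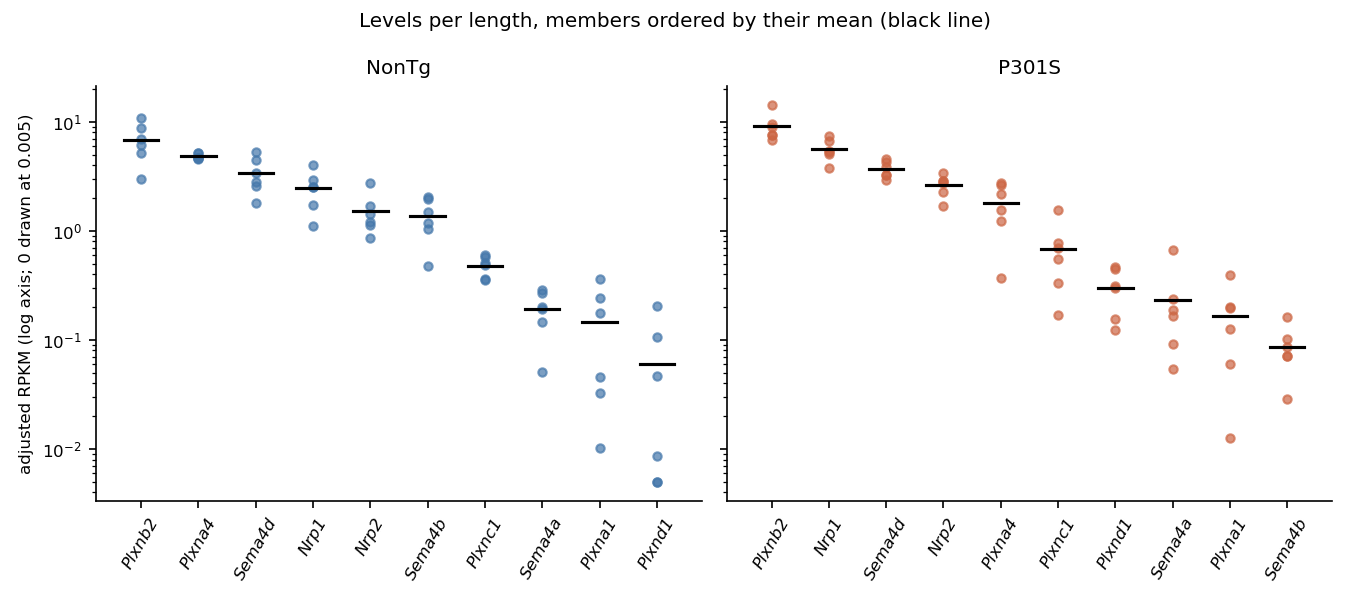
Adjusted RPKM of the 10 genes in each library on a log axis, ordered by the mean (black line) within NonTg on the left and within P301S on the right. Sema4b moves from rank 6, at 1.36, to last, at 0.0867, and Nrp1 from rank 4 to rank 2.

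Each family was also summed per length, and the share of its members taken, as a description. The summed adjusted RPKM of the 9 plexins was 13.5 ± 2.89 in NonTg and 12.8 ± 2.39 in P301S. Plxna4 made up 36.8% ± 6.37 of it in NonTg (29.3% to 44.9% over libraries) and 14.4% ± 8.01 in P301S (3.26% to 24.5%). Plxnb2 made up 48.9% ± 11.3 in NonTg and 70.5% ± 9.45 in P301S. The shares of Plxna4 and of Plxnb2 did not overlap between the genotypes, and those of Plxna1 (1.15% ± 1.07 and 1.31% ± 0.98) and Plxnc1 (3.66% ± 1.11 and 5.45% ± 4.03) did. These shares sum to 100%, so a lower share of one plexin raises those of the others. The summed adjusted RPKM of Nrp1 and Nrp2 was 3.97 ± 0.92 in NonTg (2.59 to 5.42) and 8.25 ± 1.29 in P301S (6.77 to 10.3), with no overlap. Nrp1 made up 61.3% ± 16.6 and 67.7% ± 8.49 of that sum. Sema4b was 11.5% ± 4.47 of the summed semaphorins in NonTg and 0.895% ± 0.402 in P301S.

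Ratios of counts within a library do not depend on how libraries are scaled to each other. The log2 ratio of Nrp1 to Plxna4 counts, with 0.5 added to each, was -2.03 ± 0.58 in NonTg (-2.997 to -1.335) and 0.92 ± 1.35 in P301S (-0.16 to 3.37). The ratio of Nrp2 to Plxna4 was -2.397 ± 0.59 in NonTg and 0.15 ± 1.12 in P301S. Neither ratio overlapped between the genotypes. The ratio of Plxnb2 to Plxna4 was -0.50 ± 0.59 in NonTg and 1.66 ± 1.24 in P301S, again without overlap. That of Sema4b to Sema4d was -2.16 ± 0.64 and -6.18 ± 0.81, also without overlap. The ratios of Nrp1 to Nrp2 and of Sema4d to Plxnb2 overlapped. A ratio shows unequal change of 2 genes and not which of them changed. Each ratio without overlap holds Plxna4 or Sema4b, whose CPM alone did not overlap, so these ratios are no separate evidence. The share of all gene pairs without such overlap was not computed.

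**Figure D4:**
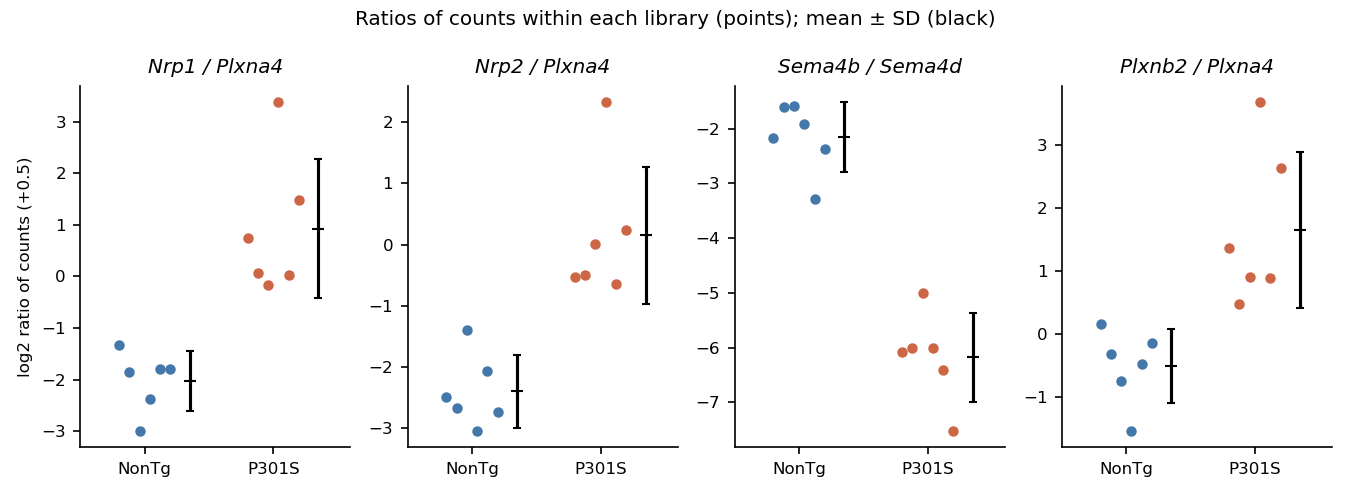
Log2 ratio of counts within each library (0.5 added to each count) for 4 pairs of genes, NonTg in blue and P301S in orange, with mean and SD. The genotypes do not overlap in any of the 4 panels, whose vertical axes differ. The ratios of Nrp1 to Nrp2 and of Sema4d to Plxnb2, which overlapped, are not drawn.

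Outside the family, 66 genes of the signalling pathway were listed by role, 44 of them were tested, and 5 (11.4%) were called, 3 higher and 2 lower. Over all genes tested the share was 3.87%, with 2.37% higher and 1.5% lower. The list was drawn up with earlier results of these libraries known, so its count is no independent evidence. Their median log2 fold change was 0.05, with 23 positive and 21 negative values. Cd72, a receptor of Sema4d on immune cells besides the plexins, ranged from 4.28 to 11.8 CPM in NonTg, median 4.79, and from 13.3 to 76.8 in P301S, median 30.9. It rose in P301S with no overlap of the genotypes, by 2.72 ± 0.55 on the log2 scale (adjusted p = 0.0032). Flt1, a VEGF receptor, ranged from 0.914 to 9.74 CPM in NonTg, median 3.91, and from 11.6 to 77.0 in P301S, median 28.8. Its log2 fold change was 2.99 ± 0.64 (adjusted p = 0.00559), again with no overlap. Counts per NonTg library were few, 5 to 29 for Cd72 and 1 to 16 for Flt1. Of the 16 receptors outside the plexins, 9 were tested and the 2 named rose. Trem2 and Tyrobp, of the complex that plexin A1 associates with, had log2 fold changes of 0.65 ± 0.27 (adjusted p = 0.192) and 0.48 ± 0.25 (adjusted p = 0.366).

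Among 12 genes of kinases or their activators, 11 were tested, 2 fell and none rose. Rock2, a kinase that acts on the actin cytoskeleton, ranged from 822.3 to 1351 CPM in NonTg, median 1078, and from 449.4 to 775.9 in P301S, median 583.1. It fell by 0.89 ± 0.18 on the log2 scale (adjusted p = 0.00269) with no overlap. Cdk5r1, the activator of the kinase Cdk5, had a mean of 70.7 ± 32.0 CPM in NonTg and 19.6 ± 9.31 in P301S. It fell by 1.86 ± 0.42 on the log2 scale (adjusted p = 0.00866), and 5 of 6 P301S libraries lay below all NonTg libraries. Of 10 cytoskeletal effectors, 5 were tested and Mical1, an actin-oxidising enzyme that binds plexins, was called higher. It had 8.39 ± 5.28 CPM in NonTg and 36.2 ± 20.8 in P301S, higher by 2.13 ± 0.61 on the log2 scale (adjusted p = 0.0433). That call was lost without any 1 of 9 of the 12 libraries, with adjusted p up to 0.149.

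No call was made among 13 tested GTPases and their regulators of 19 listed, where the smallest p was that of Rap1a, at -0.68 ± 0.35 (adjusted p = 0.347). Of the 5 VEGF ligands 2 were tested, and Vegfb had 1.18 ± 0.69 (adjusted p = 0.437). All 4 listed proteases, which shed or otherwise process semaphorins or neuropilins, were tested, and Adam17 had 0.29 ± 0.23 (adjusted p = 0.607).

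**Figure D5:**
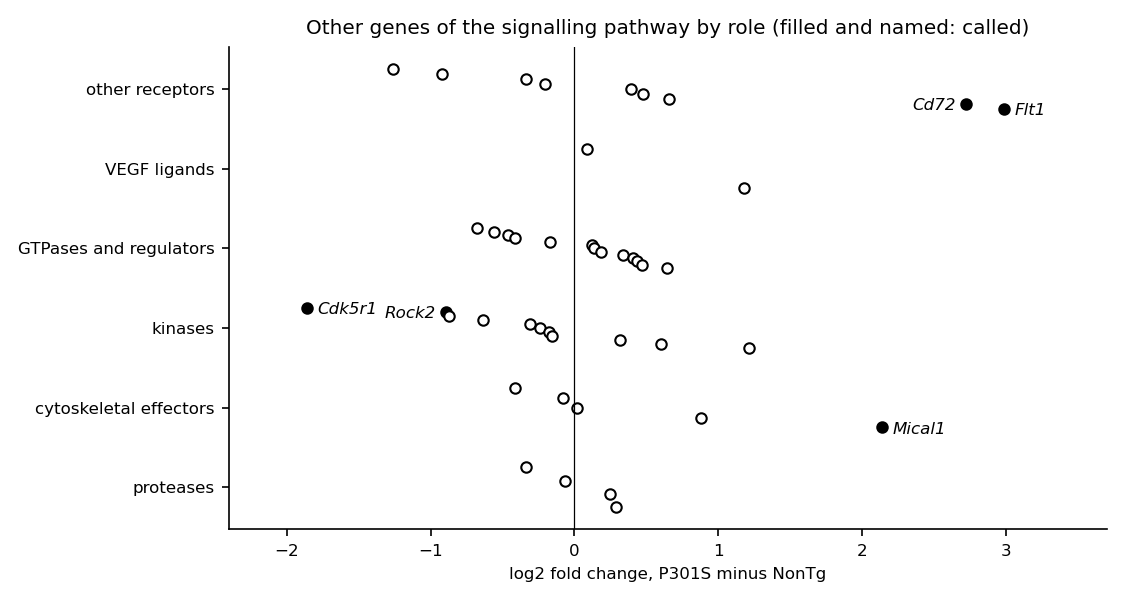
Log2 fold change (P301S minus NonTg) of the 44 tested pathway genes outside the family, 1 point per gene, by role; vertical offsets within a role only separate the points. The 5 called genes are filled and named, Cd72 and Flt1 furthest to the right at 2.72 and 2.99.

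By likeness of log2 CPM over the 12 libraries, the genes outside the family closest to Sema4b, the member with the largest difference, included Csmd3, Zfhx3, Cmya5 and Itgam. Their Pearson r ranged from 0.919 to 0.942 and their Spearman rho from 0.811 to 0.888. These 4 were called lower in P301S, so this likeness is in large part that of the genotypes. After subtracting each genotype's mean, the closest were C1galt1, Epha2, H2-M3, Casd1 and Plaur, with r from 0.829 to 0.926 and rho from 0.727 to 0.923. None of the 4 was among them. In P301S the 2 to 6 counts of Sema4b leave little but counting error to correlate. The libraries share depth and composition, and these values are given as a description.

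Several measures of the libraries moved with genotype, and their part in the differences above was not tested. Depth was 1196069 to 4145069 counts per library, 2046000 ± 825100 in NonTg and 2924000 ± 809100 in P301S (two-sided exact permutation test, adjusted p = 0.254). Of 16 measures, counts of gene numbers without a symbol took 2.65% ± 0.37 in NonTg and 1.79% ± 0.19 in P301S, without overlap (exact permutation test, adjusted p = 0.0115). Malat1 took 14.7% ± 2.39 of counts in NonTg and 9.51% ± 1.04 in P301S, without overlap (exact permutation test, adjusted p = 0.0115). Mitochondrial genes took 15.2% ± 3.18 and 24.7% ± 6.71 (exact permutation test, adjusted p = 0.0554). The summed CPM of the 10 microglial markers was 12810 ± 1270 in NonTg and 6947 ± 961.2 in P301S, without overlap (exact permutation test, adjusted p = 0.0115). Of these 10, 5 were called lower and none higher. They were Itgam, on whose product the cells were sorted, with Cx3cr1, P2ry12, Tmem119 and Siglech. Itgam had 1625 to 2351 CPM in NonTg and 1079 to 1419 in P301S, and fell by 0.58 ± 0.15 on the log2 scale (adjusted p = 0.0264). P2ry12 had -2.02 ± 0.25 (adjusted p = 3.728e-06).

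Markers of other cells that carry neuropilins and plexins were summed in the same way. The 6 endothelial markers summed to 4.06 to 100.5 CPM in NonTg and 0.814 to 23.8 CPM in P301S (exact permutation test, adjusted p = 0.55). Cldn5 was at 0 in every library, and the highest NonTg sum was mostly Slco1a4, at 89.5 CPM. Pecam1 had 103 counts in all NonTg and 41 in all P301S libraries, and Cdh5 had 16 and 70. Their part in the values of Nrp1, Flt1 and Plxnd1 was not tested. Markers of mural cells and fibroblasts summed to 17.5 ± 6.89 CPM in NonTg and 6.55 ± 4.47 in P301S (exact permutation test, adjusted p = 0.0433). Those of neurons, which carry Plxna4 and Nrp1, summed to 114.0 ± 43.7 and 79.9 ± 53.8 CPM (exact permutation test, adjusted p = 0.55). The sums for border macrophages, monocytes, neutrophils, lymphocytes, dendritic cells, astrocytes, oligodendrocytes and their precursors had adjusted p from 0.623 to 0.948 by the same exact permutation test. The astrocyte sum was mostly Slc1a2, at 307.8 ± 153.1 CPM in NonTg and 298.7 ± 160.5 in P301S. Within it Gfap, the filament protein of astrocytes, was called higher, with 0.785 to 6.09 CPM in NonTg and 11.1 to 23.2 in P301S. It rose by 2.65 ± 0.67 on the log2 scale (adjusted p = 0.0199). The other 4 tested astrocyte markers were not called. Its part in the members' differences was not tested.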

How the data were processed

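The 12 RNA-seq libraries, 6 per genotype, hold RNA of sorted Cd11b-positive cells. Each deposited table gives, per the file headers, a count of uniquely aligned reads per gene model (Entrez gene number) and a size-factor-adjusted RPKM. The authors aligned reads to GRCm38 with GSNAP, per the submitters' processing notes; no source used here gives the counter, annotation or strandedness. Here, genes were named from RefSeq (31049 of 36528 gene numbers had a symbol), and positions and exon overlaps come from GENCODE M21.

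Counts were normalised by TMM and filtered with filterByExpr (minimum count 10), leaving 10022 genes. Genotypes were compared with edgeR 4.0.16 (R 4.3.3), glmQLFit with robust estimation and glmQLFTest, Benjamini-Hochberg adjustment over all genes tested and a threshold of 0.05. The SE is the log2 fold change over the square root of F. The common biological coefficient of variation was 0.64. The procedure was also run on simulated counts with the same dispersion for every gene and both genotypes. That setting cannot show how it handles unequal spread such as that of Plxna4. The 30 pairs of libraries within a genotype differed by more than counting noise (chi-square per degree of freedom at least 18.2), so none was treated as a duplicate. Replicate numbers follow the order of deposit and pair nothing. Levels between genes used the deposited RPKM. Measures of libraries were compared with a two-sided exact permutation test over 924 assignments, adjusted over 16 measures.

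The members and all lists were chosen with earlier results of these data known. Named in the text are all members, every tested gene of the family, every called pathway gene, the pathway gene with the smallest p in each role with no call, and the 5 genes most like Sema4b by each measure, 1 of which is not reported here. Named beyond that rule, after their values were seen, were Trem2, Tyrobp, Malat1, the untested family genes, the called microglial markers and single astrocyte and endothelial markers. Alternatives were DESeq2 1.42.0, limma-voom (limma 3.58.1), 2 other size factors, no mitochondrial genes, other count filters, log2 of the deposited RPKM plus 1 or 0.1, and each library left out.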

Additional observations from a re-analysis of the deposited data

How the results depend on the processing

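The 3 called members, Sema4b, Plxna4 and Nrp1, were called under every alternative that tested them and without any single library. With a minimum count of 30, Sema4b was not kept, and 2 members were called. The main comparison called 388 of 10022 genes (61.3% higher). DESeq2 called 1032 (46.2% higher) and edgeR with no count filter 1063 (38.7% higher), both fitted on a larger set of 29308 genes. Without a single library, 273 to 386 genes were called. Pathway genes called were 5, or 4 to 6 without a single library. With a minimum count of 30 they were 3, since Cd72 and Flt1 were not kept. No other family gene was called under any alternative. Direction reversed for 3 members that were not called: Sema4a at -0.359 without P301S library 2 (-0.359 to 0.515 over single libraries left out), Sema4d at -0.0079 without NonTg library 3 (-0.0079 to 0.282), and Plxna1 at -0.0636 without NonTg library 1, -0.0299 without NonTg library 6 and -0.267 without P301S library 5 (-0.267 to 0.762). The call of Mical1 was lost on log2 RPKM plus 1 (adjusted p = 0.0622, limma) and plus 0.1 (adjusted p = 0.0803, limma). Without a filter the median of the genes tested in the main comparison was 0.05. Depth limits Sema4a, Sema4b, Plxna1 and Plxnd1, which had single-digit counts in several libraries. No paired analysis was possible because the labels name no litter, pair or batch.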
